A study of Mus musculus with 15 samples.

Results

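The cytosolic heat-shock chaperones are proteins that hold, refold or hand on other proteins in the cytosol, and 10 genes that encode them or their direct partners were followed in mouse liver. The genes were Hspa1a, Hspa1b, Hspa8, Hsph1, Bag3, Dnajb1, Dnaja1, Hsp90aa1, Hsp90ab1 and Chordc1, which made up 10 of the 17527 genes with expression values. They were taken by symbol from the authors' expression table, and they had been chosen because their levels lay below control in livers of dosed animals. The levels in dosed and control livers therefore chose the genes, and that comparison is given as a description with no test. The other comparisons share either the dosed or the control livers with that choice.

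RNA was sequenced from 15 mouse livers in 3 groups of 5. BBBPH mice had diet-induced nonalcoholic steatohepatitis, a fatty liver with inflammation, and were given biotransformed bear bile powder orally at 150 mg/kg every day. Model mice ate the same diet and were given saline. Dosing began after week 12 and ran beside the diet until week 20. In the diet of BBBPH and model mice fat supplied 60% of the calories, protein 20% and carbohydrate 20%, and cholesterol was added at 0.2%. Their drinking water held sugar at 42 g/L, of which 55% was sucrose and 45% fructose. Control mice are labelled only as control, and the labels do not say what they ate, nor give a strain, sex, age or hour of sampling. For the BBBPH group 14 mice are labelled and 5 livers were sequenced. The labels do not say that the libraries of a group came from separate cages or extraction days, so p-values measure the spread between these livers.

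Cells answer heat, unfolded proteins and other stress by releasing heat-shock factor 1 (HSF1) from chaperones in the cytosol. HSF1 then binds repeats of the unit GAANN, in alternating orientation, upstream of chaperone genes. Hsp70 proteins take up exposed stretches of a client protein, J-domain proteins bring clients to them, exchange factors release them, and Hsp90 with its co-chaperones finishes kinases and steroid receptors.

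The stretches before the start sites of the Hsp70 pair and around the matches of 2 partners are shown because they hold paired HSF1 units, GAANNTTC or TTCNNGAA, which are given in capitals. Each of these motifs is its own reverse complement, so a search of a strand covers both. Sequences are from RefSeq on GRCm38.p6 and are written 5′ to 3′ on the strand of the gene. For Hspa1a, chr17:34972157-34972306 on the minus strand, and for Hspa1b, chr17:34959239-34959388 on the minus strand, the 150 bases before the start are given. In each of them the match begins 104 bases before the start, and the 150-base stretches differ at 1 position.
Hspa1a: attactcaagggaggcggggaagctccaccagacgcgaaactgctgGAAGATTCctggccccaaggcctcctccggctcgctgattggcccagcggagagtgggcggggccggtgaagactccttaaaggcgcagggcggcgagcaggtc
Hspa1b: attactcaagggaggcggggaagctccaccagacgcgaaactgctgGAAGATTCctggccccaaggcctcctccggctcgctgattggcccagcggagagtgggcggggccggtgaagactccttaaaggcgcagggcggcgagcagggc
The 30 bases around the match are given for Hsph1, chr5:149636351-149636380 on the minus strand, where it begins 33 or 54 bases before 2 annotated starts, and for Dnaja1, chr4:40722333-40722362 on the plus strand, where it begins 124 bases before 1 of 3 annotated starts. Both matches lie within the bounds that GENCODE gives these genes.
Hsph1: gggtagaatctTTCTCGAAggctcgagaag
Dnaja1: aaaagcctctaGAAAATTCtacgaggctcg

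Start sites were available for 7 of the 10 genes, with 11 starts, and 4 of the 7 (57.1%) held such a pair within 250 bases upstream of at least 1 start, for Hsph1 and Dnaja1 inside the annotated gene. Among 7760 genes of the same promoter set with a mean of at least 1 FPKM, 974 (12.6%) held one, and among all 27025 genes of the set 14.5% did. Counted by start, 5 of 11 starts (45.5%) of the chaperone genes held a pair, against 12.8% of all 32851 starts. Both Hsph1 starts share the same match, and over 250 bases the Hspa1a and Hspa1b stretches differed at 3 positions. The starts and genes counted as holding a pair are therefore not independent of each other. A longer form with 3 alternating units was in 0 of the 7 genes and in 0.541% of the expressed genes. Dnajb1, Bag3 and Chordc1 held neither form, which says only that these letters are not in the 250 bases searched. The letters were matched in the genome, and binding of HSF1 was not measured here.

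Expression is given as FPKM, the authors' fragments per kilobase of gene scaled by the mapped fragments of the library, which allows levels to be compared between genes. The libraries rested on 35394925 to 39623150 fragments, and 1 fragment in a gene of 1 kilobase was worth 0.0252 to 0.0283 FPKM. BBBPH values are listed for livers 2_1, 2_2, 3_1, 3_2 and 3_4, model values for livers 1_1, 1_4, then 2_1, 2_3, then 3_4, and control values for livers 1_1, 1_5, then 2_1, 2_2, then 3_4. All libraries had the markers of hepatocytes, whose 7 markers summed to 64500 to 73500 FPKM in BBBPH, 41600 to 64400 FPKM in model and 69700 to 77700 FPKM in control livers. Stellate cell markers summed to 121 to 136 FPKM in BBBPH, 133 to 169 FPKM in model and 102 to 128 FPKM in control livers. Sums of macrophage, cholangiocyte, neutrophil and erythroid markers overlapped between all 3 groups, whereas endothelial markers (110 to 119 FPKM in BBBPH and 90.7 to 108 FPKM in control livers) and lymphocyte markers (2.00 to 3.75 and 0.888 to 1.94 FPKM in the same order) did not overlap between BBBPH and control livers. Some libraries stood apart by transcripts of other kinds. BBBPH 2_2 held 2760 FPKM of 5 pancreas markers, and control 2_1 held 260 FPKM of 4 skeletal muscle markers. Model 1_4 held 16.5 FPKM of Myc against 1.36 to 3.07 FPKM in the other model livers. Control livers held 9.90 to 38.6 FPKM of Myc, so model 1_4 stood apart from its own group and lay within the control range. The part of these cell types in the chaperone values was not tested, and in bulk liver fewer cells of a type and less RNA per cell cannot be told apart.

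The pair of stress-inducible Hsp70 genes had the largest falls of the mean in BBBPH relative to model livers. Hspa1b (chr17:34956436-34959238, minus strand), which encodes the Hsp70 that heat induces strongly, was at 6.39, 4.56, 5.97, 5.30 and 2.99 FPKM in BBBPH livers, 163, 68.5, 26.3, 52.3 and 46.4 FPKM in model livers and 26.5, 58.6, 49.2, 69.8 and 76.5 FPKM in control livers. Every BBBPH liver lay below every other liver, while model and control livers overlapped, with model 1_1 far above the rest. The mean fell by 92.9% in BBBPH livers to 5.04 ± 1.34 FPKM, against 71.4 ± 53.6 FPKM in model livers (SD, n = 5 each), a log2 fold change of -3.35 ± 0.38 (standard error, on the scale of log2(FPKM + 1); limma, adjusted p = 2.71e-05). Control livers averaged 56.1 ± 19.6 FPKM, and model livers did not pass the test against them, with a log2 fold change of 0.16 and a 95% interval of -0.64 to 0.96 (limma, adjusted p = 0.758). That small difference took the opposite sign, -0.20, without model 1_1 and -0.081 without control 1_1.

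Hspa1a (chr17:34969190-34972156, minus strand) encodes nearly the same protein from a neighbouring copy. It was at 0.514, 0.280, 0.323, 0.302 and 0.225 FPKM in BBBPH livers, 12.3, 6.17, 1.5, 3.53 and 2.14 FPKM in model livers and 4.23, 7.33, 8.85, 10.3 and 8.06 FPKM in control livers. BBBPH livers rested on only 25 to 55 fragments each, against 154 to 1321 in model and 427 to 1068 in control livers, and did not overlap with either. Relative to model livers the log2 fold change was -1.94 ± 0.34 (limma, adjusted p = 0.000816), and the mean fell by 93.6%, a larger change than the log2 value shows because adding 1 FPKM compresses genes at such low levels. With voom on recovered fragment counts the log2 fold change was -3.61. Hspa1a was also the member whose mean was lower in model livers (5.14 ± 4.41 FPKM) than in control livers (7.75 ± 2.26 FPKM), with a log2 fold change of -0.74 that did not pass the test (limma, adjusted p = 0.101). It did pass without model 1_1 (log2 fold change -1.09, limma adjusted p = 0.00531) and with voom on fragments (-1.09, adjusted p = 0.0482). Of the 100-base windows of the Hspa1a transcript, 47.1% occur unchanged in Hspa1b, and 49.9% of those of Hspa1b occur in Hspa1a, so the division of fragments between the copies is uncertain. When both rows were summed, 9 of 9 rows were called lower in BBBPH than in model livers. Hspa1a also shares exonic bases with the antisense gene Gm20481, and the strand setting of the count is not stated.

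Hspa8 (chr9:40800984-40810087, plus strand) encodes Hsc70, the constitutive Hsp70 of the cytosol, and was the most abundant transcript of the set. It was at 703, 601, 765, 613 and 622 FPKM in BBBPH livers, 1320, 928, 974, 1090 and 1390 FPKM in model livers and 1120, 851, 844, 806 and 980 FPKM in control livers. All BBBPH livers lay below all others, the highest at 765 FPKM against 806 FPKM in the lowest control liver. The mean fell by 42.0% relative to model livers, a log2 fold change of -0.77 ± 0.12 (limma, adjusted p = 0.000395). Model livers averaged 1140 ± 205 FPKM and control livers 921 ± 130 FPKM, which did not pass the test (log2 fold change 0.30, limma adjusted p = 0.0694), though it did without control 1_1 (adjusted p = 0.0319) or without model 1_4 (adjusted p = 0.0286). Of its 100-base windows 63.4% occur in other genes, mainly Gm15459, and its exons share bases with 3 small nucleolar RNA genes (Snord14c, Snord14d and Snord14e), so its level is uncertain to that extent.

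The 2 members that release Hsp70 from its clients fell strongly. Hsph1 (chr5:149614287-149636376, minus strand), the Hsp110 exchange factor, was at 8.33, 6.82, 9.76, 6.78 and 6.44 FPKM in BBBPH livers, 53.5, 38.1, 23.3, 38.0 and 41.5 FPKM in model livers and 27.8, 27.8, 24.3, 29.3 and 32.9 FPKM in control livers. The BBBPH values were tight and far below the others, and 4 of 5 model livers lay above all control livers, while model 2_1 lay below them. Hsph1 fell by 80.4% in BBBPH relative to model livers, with a log2 fold change of -2.18 ± 0.17 and an interval of -2.53 to -1.82 (limma, adjusted p = 2.18e-06), the smallest p of the set. Between model (38.9 ± 10.8 FPKM) and control (28.4 ± 3.11 FPKM) livers the log2 fold change was 0.40 (limma, adjusted p = 0.0688), and without model 2_1 it was 0.57 (adjusted p = 0.0039, limma).

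Bag3 (chr7:128523616-128546981, plus strand) encodes an exchange factor that links Hsp70 to small heat-shock proteins and to the removal of aggregates by autophagy. It was at 12.5, 8.12, 12.2, 9.61 and 9.51 FPKM in BBBPH livers, 50.0, 46.9, 21.6, 30.2 and 35.9 FPKM in model livers and 27.7, 29.2, 29.0, 30.9 and 22.5 FPKM in control livers. Again all BBBPH livers lay below all others, and model 2_1 was the lowest model liver. The mean fell by 71.8% relative to model livers, a log2 fold change of -1.69 ± 0.18 (limma, adjusted p = 2.07e-05). Model (36.9 ± 11.7 FPKM) against control (27.9 ± 3.19 FPKM) livers gave 0.34 (limma, adjusted p = 0.156), and 0.51 without model 2_1 (adjusted p = 0.019).

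Of the J-domain partners, heat-inducible Dnajb1 had the larger fall in BBBPH relative to model livers and Dnaja1 the larger difference between model and control livers. Dnajb1 (chr8:83608193-83612653, plus strand), the Hsp40 that works with Hsp70 in breaking up aggregates, was at 7.48, 7.59, 9.33, 7.83 and 6.41 FPKM in BBBPH livers, 31.2, 23.4, 14.8, 20.4 and 21.4 FPKM in model livers and 21.9, 24.6, 17.4, 19.6 and 19.6 FPKM in control livers. Model and control livers overlapped, and BBBPH livers lay clear below both. Relative to model livers Dnajb1 fell by 65.3%, a log2 fold change of -1.39 ± 0.15 (limma, adjusted p = 1.80e-05). Model livers (22.3 ± 5.93 FPKM) against control livers (20.6 ± 2.74 FPKM) gave 0.08, with an interval of -0.24 to 0.39 (limma, adjusted p = 0.70), and the sign of this value changed with the scaling.

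Dnaja1 (chr4:40722150-40737149, plus strand) encodes an abundant J-domain protein of the cytosol. It was at 70.3, 56.6, 60.9, 66.6 and 72.7 FPKM in BBBPH livers, 165, 120, 112, 133 and 152 FPKM in model livers and 114, 113, 89.7, 114 and 98.6 FPKM in control livers. BBBPH livers did not reach the lowest control liver, and only model 2_1 fell within the control range. Dnaja1 fell by 52.0% in BBBPH relative to model livers (log2 fold change -1.04 ± 0.11, limma adjusted p = 1.72e-05) and was higher in model than in control livers (136 ± 22.1 against 106 ± 11.3 FPKM, log2 fold change 0.35, limma adjusted p = 0.0207). The second call was lost without control 2_1, model 1_1 or model 3_4, with limma adjusted p of 0.0538, 0.0549 and 0.0501. It was also lost with median-ratio size factors (0.194, limma adjusted p = 0.246) and with voom (0.215, adjusted p = 0.191). Dnaja1 shares exonic bases with Gm6297 and Smu1 on the opposite strand, and 24.0% of its 100-base windows occur in other genes.

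The pair of Hsp90 genes differed in the size of their fall and were the members that overlapped between BBBPH and control livers. Hsp90aa1 (chr12:110690605-110702728, minus strand), the heat-inducible form, was at 90.4, 61.0, 92.2, 61.5 and 67.0 FPKM in BBBPH livers, 192, 143, 112, 159 and 197 FPKM in model livers and 123, 126, 87.7, 104 and 118 FPKM in control livers. BBBPH 2_1 and 3_1 lay above control 2_1, and the other 3 BBBPH livers lay below all controls. It fell by 53.7% in BBBPH relative to model livers (log2 fold change -1.09 ± 0.16, limma adjusted p = 0.000226). It was higher in model livers (161 ± 35.4 FPKM) than in control livers (112 ± 15.8 FPKM), by 0.50 on the log2 scale (limma, adjusted p = 0.0246). That call was lost without control 2_1, control 2_2, model 1_1 or model 3_4, with limma adjusted p of 0.0511 to 0.0629. It was also lost with median-ratio size factors (0.345, limma adjusted p = 0.154) and with voom (0.366, adjusted p = 0.13). Of its 100-base windows 47.5% occur in other genes, mainly Gm12346.

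Hsp90ab1 (chr17:45567775-45573271, minus strand), the constitutive form, was at 527, 453, 570, 465 and 464 FPKM in BBBPH livers, 874, 650, 641, 757 and 944 FPKM in model livers and 620, 555, 552, 566 and 654 FPKM in control livers. It lay closest to control of all members: BBBPH livers averaged 496 ± 50.6 FPKM and control livers 589 ± 45.6 FPKM, and BBBPH 3_1 lay above 3 control livers. Relative to model livers (773 ± 134 FPKM) it fell by 35.9% in BBBPH livers, a log2 fold change of -0.63 ± 0.11 (limma, adjusted p = 0.000724). It was higher in model than in control livers by 0.38 on the log2 scale (limma, adjusted p = 0.0137). The call held in every fit that left out a library and was lost with median-ratio size factors (0.22, adjusted p = 0.191) and with voom (0.24, adjusted p = 0.149).

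Chordc1 (chr9:18292125-18317442, plus strand) encodes a heat-inducible co-chaperone of Hsp90, also called morgana. It was at 13.4, 11.9, 12.9, 13.2 and 11.8 FPKM in BBBPH livers, 30.6, 26.6, 23.8, 31.1 and 37.1 FPKM in model livers and 26.4, 21.3, 19.4, 21 and 24 FPKM in control livers. The BBBPH livers varied least of any member, with a coefficient of variation of 5.69%, and lay below all others. Chordc1 fell by 57.6% relative to model livers (log2 fold change -1.16 ± 0.10, limma adjusted p = 4.76e-06) and was higher in model (29.8 ± 5.06 FPKM) than in control (22.4 ± 2.78 FPKM) livers by 0.39 (limma, adjusted p = 0.00877), a call also lost with median-ratio size factors (0.24, adjusted p = 0.128) and with voom (adjusted p = 0.0931).

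**Figure D1:**
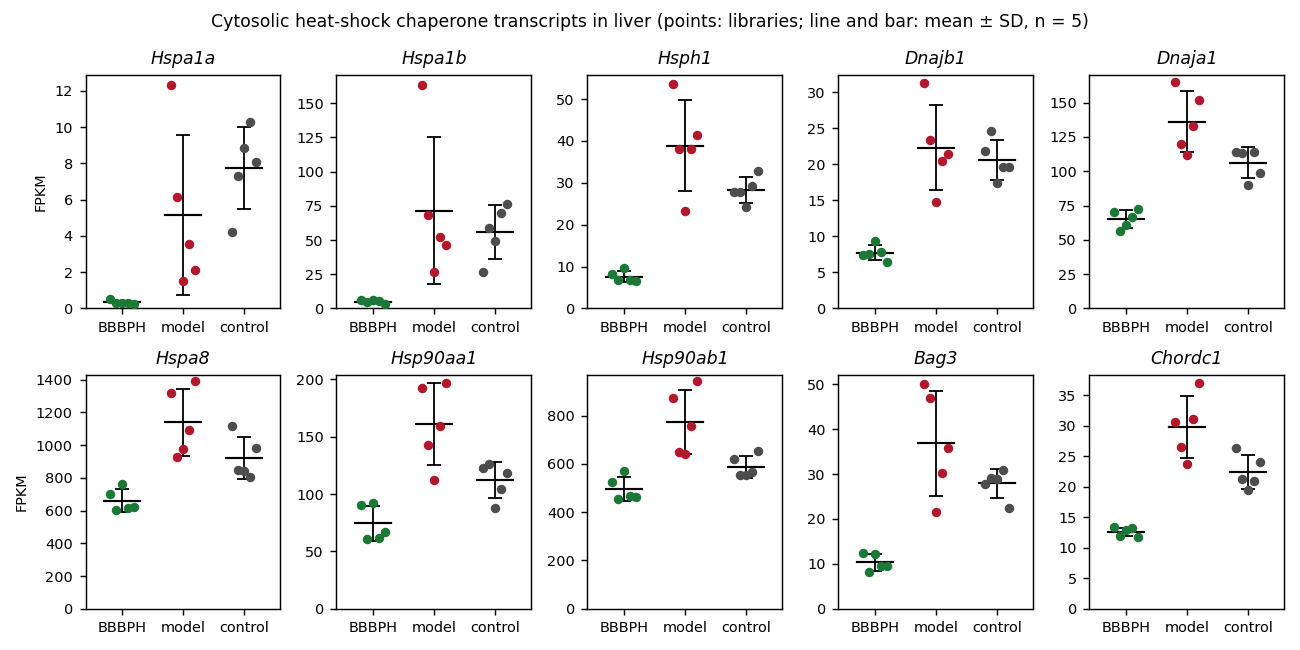
FPKM of the 10 chaperone genes (vertical axis, a scale for each gene from 0) in BBBPH, model and control livers, with a point for each library and a line and bar for the mean ± SD of 5 libraries. BBBPH livers lie below all model livers in each gene and below all control livers in 8 of 10, and model 1_1 stands high in Hspa1a and Hspa1b at 12.3 and 163 FPKM.

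The comparison of BBBPH with model livers sets animals given the powder beside animals given saline on the same diet. All 10 members fell, and in all 10 every BBBPH liver lay below every model liver. Over the 9575 genes tested, 12.2% were called lower and 14.2% higher in BBBPH than in model livers, and 7.9% had every BBBPH liver below every model liver. The median log2 fold change was -1.27 over the members and 0.02 over all genes tested. This comparison shares the BBBPH livers with the choice of the members, so a low value in them was built into the choice, and the count adds only that model livers too lay above them. Members called stayed at 10 in each of the 15 fits that left out a library, and at 9 where a minimum of 5 FPKM removed Hspa1a. The count was 6 when libraries with the same number were fitted as a block, although the labels do not say what the numbers mean.

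Model livers were compared with control livers to ask how the livers of diseased mice differed. Of the 10 members, 4 were higher, namely Dnaja1, Hsp90aa1, Hsp90ab1 and Chordc1, and 0 were called lower by limma, with 1 (Hspa1a) lower at an unadjusted p under 0.05 and by voom. All 10 overlapped between the groups. Over all genes tested 29.9% were called higher and 8.64% lower, and in 18.8% every model liver lay above every control liver, so 4 of 10 is a share near that of all genes. The median was 0.35 over the members and 0.12 over all genes tested, and relative to that shift the 4 called members stood 0.23 to 0.38 higher. With size factors from median ratios, which put the median of all genes at -0.01 and the calls at 1483 higher and 1809 lower in place of 2865 and 827, 0 of the 10 were called by limma, with 1 (Hspa1a, lower) at an unadjusted p under 0.05, and the 4 genes had log2 fold changes of 0.19 to 0.35. The count was 2 without control 2_1 and 2 without model 3_4. The comparison shares the control livers with the choice of the members.

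The members had been chosen on BBBPH against control livers. There the log2 fold changes ran from -3.19 for Hspa1b and -2.68 for Hspa1a, through -1.78 for Hsph1, -1.35 for Bag3, -1.31 for Dnajb1, -0.77 for Chordc1 and -0.69 for Dnaja1, to -0.59 for Hsp90aa1, -0.47 for Hspa8 and -0.25 for Hsp90ab1. Every BBBPH liver lay below every control liver in 8 of 10 members, where 2.22% of all genes tested did so, and 3.7% of all genes tested were called lower and 24.4% higher. Nothing is read from these counts, since the choice fixed them. The median over all genes tested was 0.13, and with median-ratio size factors it was -0.01 with 667 called higher and 944 lower in place of 2337 and 354. All 10 members kept a mean below control under every scaling run, which also rests on the values that chose them. The member nearest to control, Hsp90ab1, changed by -15.9% in the mean.

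**Figure D2:**
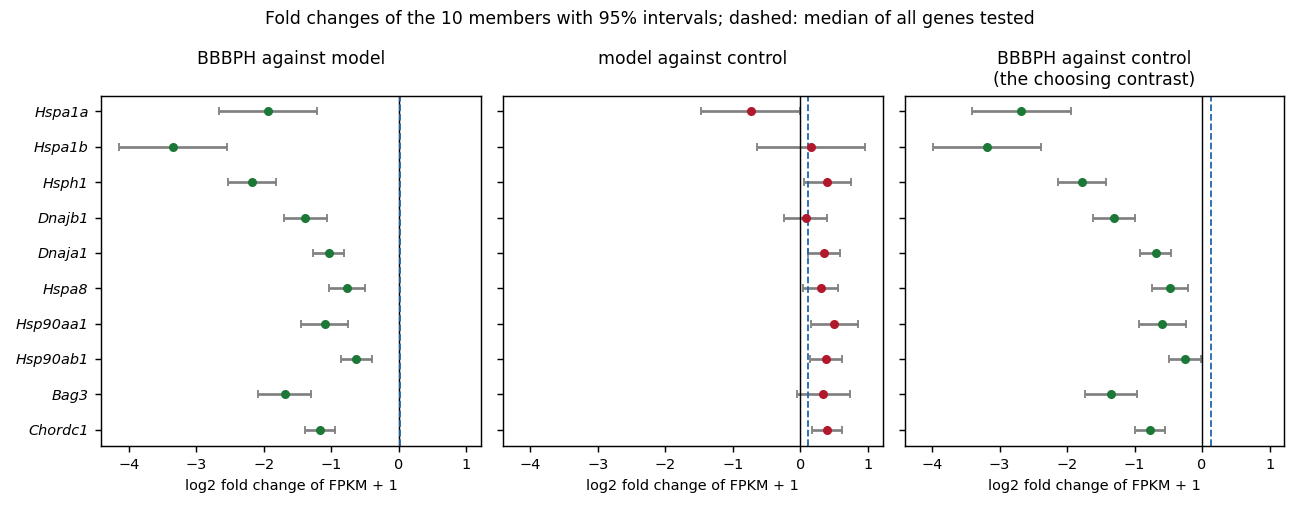
Log2 fold changes of FPKM + 1 (horizontal axis) of the 10 members with 95% intervals from limma for BBBPH against model, model against control and BBBPH against control, the last being the contrast on which the members were chosen; the dashed line marks the median of all 9575 genes tested. In BBBPH against model all 10 intervals lie below 0, from Hspa1b at -3.35 to Hsp90ab1 at -0.63. In model against control the values lie between -0.74 and 0.50. In BBBPH against control the intervals show spread only and are not a test, since the choice fixed the direction.

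Per length of gene, the constitutive members made up most of the chaperone transcript in each group. The 10 genes summed to 1340 ± 142 FPKM in BBBPH, 2410 ± 444 FPKM in model and 1890 ± 173 FPKM in control livers. Hspa8 took 49.3% of that sum in BBBPH, 47.2% in model and 48.5% in control livers, and Hsp90ab1 took 37.0%, 32.1% and 31.2% in the same order. The inducible Hspa1b took 0.374 ± 0.0812% of the sum in BBBPH livers, 2.84 ± 1.75% in model livers and 3.01 ± 1.07% in control livers. In order of mean level, Hspa8 stood first and Hsp90ab1 next in each group, followed by Hsp90aa1 and Dnaja1, whose levels overlapped in every group, and Hspa1a stood last. In BBBPH livers Hspa1b stood at 5.04 FPKM, below Chordc1 (12.6 ± 0.719), Bag3 (10.4 ± 1.89), Dnajb1 (7.73 ± 1.05) and Hsph1 (7.63 ± 1.40 FPKM), whereas it stood next below Dnaja1 in model (71.4 FPKM) and control livers (56.1 FPKM). In BBBPH livers the ranges of neighbours overlapped all along the run Chordc1, Bag3, Dnajb1 and Hsph1. In model livers they overlapped between Hspa8 and Hsp90ab1 and along the run Hsp90aa1, Dnaja1, Hspa1b, Hsph1, Bag3, Chordc1 and Dnajb1. In control livers they overlapped along Hspa1b, Hsph1, Bag3, Chordc1 and Dnajb1. Overlap of ranges does not pair genes within a liver, where the order was often kept. In all 5 model livers Hspa8 stood above Hsp90ab1, Hsp90aa1 above Dnaja1, Dnaja1 above Hspa1b and Hspa1b above Hsph1. In all 5 BBBPH livers Chordc1 stood above Bag3 and Bag3 above Dnajb1. For the other overlapping neighbours the higher gene stood above the next in 2 to 4 of 5 livers.

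Ratios within a library compare an inducible gene with its constitutive relative and do not depend on the scaling of the library. Per 100 FPKM of Hspa8 there were 0.759 ± 0.167 FPKM of Hspa1b in BBBPH, 6.13 ± 3.94 in model and 6.31 ± 2.44 in control livers. Hsp90aa1 stood at 14.9 ± 1.74 FPKM per 100 FPKM of Hsp90ab1 in BBBPH, 20.6 ± 1.89 in model and 19.0 ± 2.52 in control livers. The highest BBBPH liver in this ratio (17.2) lay just below the lowest model liver (17.4) and above the lowest control liver (15.9). Dnajb1 stood at 12.0 ± 2.50 FPKM per 100 FPKM of Dnaja1 in BBBPH, 16.2 ± 2.82 in model and 19.4 ± 1.65 in control livers. Hspa1a per 100 FPKM of Hspa1b was 6.56 ± 1.16 in BBBPH, 6.72 ± 1.70 in model and 14.3 ± 2.92 in control livers, so that all control livers (10.5 to 18) lay above all BBBPH (5.41 to 8.04) and all model livers (4.60 to 9.01). These ratios were not tested, and the last rests on the uncertain division of fragments between the copies.

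**Figure D3:**
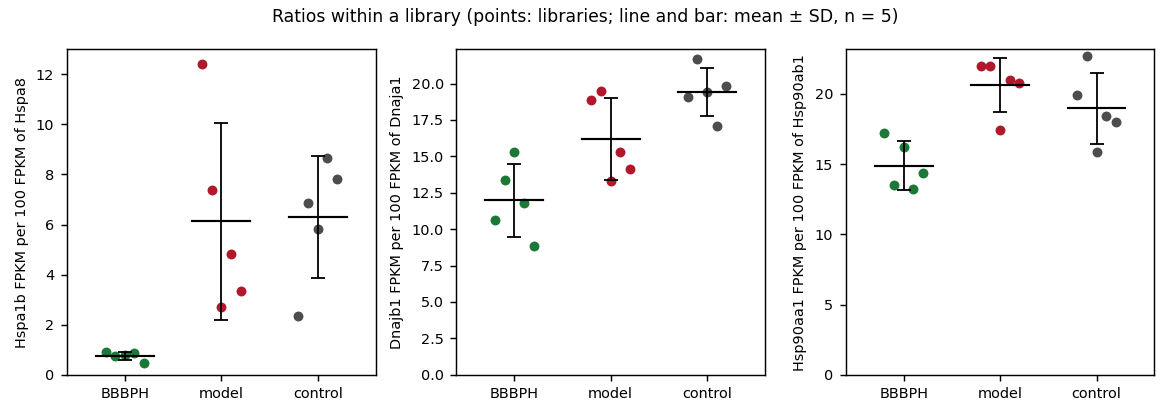
Ratios of FPKM within a library (vertical axes, from 0): Hspa1b per 100 FPKM of Hspa8, Dnajb1 per 100 FPKM of Dnaja1 and Hsp90aa1 per 100 FPKM of Hsp90ab1, with a point for each library and mean ± SD of 5. Hspa1b per 100 FPKM of Hspa8 stands under 1 in all BBBPH livers, against 2.70 to 12.4 in model and 2.36 to 8.65 in control livers.

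In model and BBBPH livers, those high in one chaperone tended to be high in others, and in control livers this was weaker. The deviations of log2(FPKM + 1) from the group means correlated between the 45 pairs of members with Pearson r from -0.105 to 0.926 and a median of 0.598 over 15 livers, given as a description with no test, since members of a library share its RNA and its depth. Over the 5 livers of a group the median r was 0.633 in BBBPH (-0.591 to 0.998), 0.781 in model (0.073 to 0.988) and 0.161 in control livers (-0.886 to 0.93). The highest were Hsp90ab1 with Hspa8 (0.926), Hspa1a with Hspa1b (0.913, copies that share sequence) and Hsp90ab1 with Hsp90aa1 (0.849). The lowest joined an Hsp70 copy to a constitutive or Hsp90-linked gene, as Hspa1a with Chordc1 (-0.105) and Hspa1a with Hspa8 (-0.047). In model 1_1 all 10 members stood above the mean of their group, by 0.538 on average on the log2 scale, and in model 2_1 all 10 stood below it, with an average of -0.555. BBBPH 2_2, the library with pancreas transcripts, had all 10 below its group mean by a small amount, with an average of -0.137, and no other BBBPH or control liver departed by more than 0.174. Without BBBPH 2_2, model 1_4 and control 2_1, all 10 members were still lower in BBBPH than in model livers, and 3 of 10 were called between model and control livers.

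**Figure D4:**
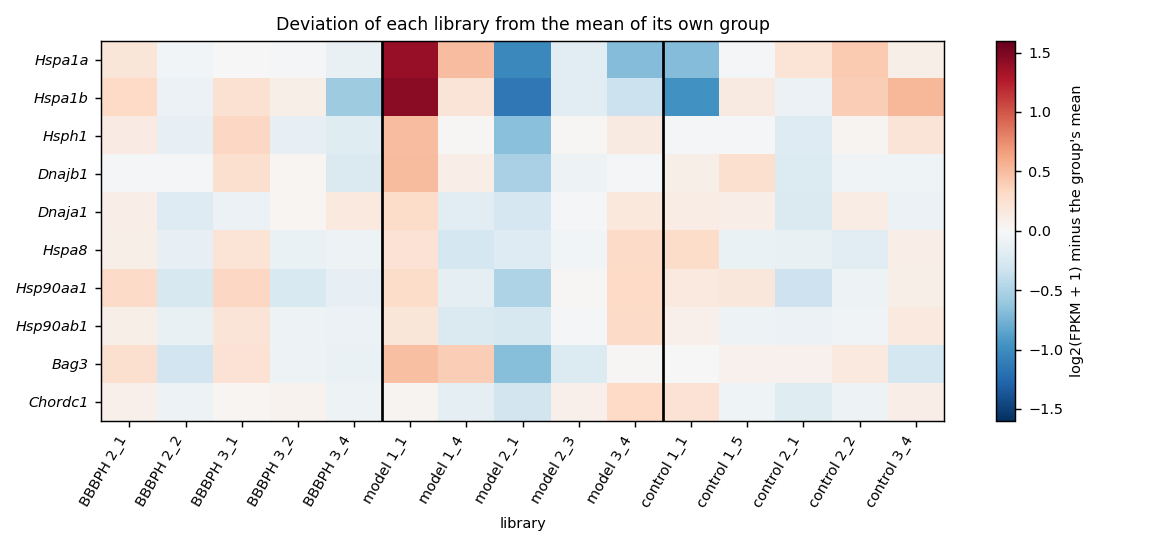
Deviation of log2(FPKM + 1) of each library from the mean of its own group (colour, red above and blue below) for the 10 members (rows) in the 15 libraries (columns, BBBPH, model and control from left to right). Model 1_1 is above its group mean in all 10 members and model 2_1 below it in all 10, with the widest departures in Hspa1a and Hspa1b.

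Other chaperones of the cytosol and mitochondria were read from 7 lists of 84 genes, of which 76 had a mean of at least 1 FPKM. In BBBPH against model livers 22 of the 76 were lower and 6 higher, with a median log2 fold change of 0.014. In model against control livers 29 were higher and 4 lower, with a median of 0.17, and in BBBPH against control livers 16 were higher and 4 lower, with a median of 0.07. With median-ratio size factors the counts were 22 lower and 5 higher, 12 higher and 10 lower, and 4 higher and 11 lower in the same order, so the direction of the calls against control livers turned with the scaling. The shares of all genes given above are the background of these counts. The lists had been written with the values of the 10 members known.

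Relatives of the Hsp70, Hsp40 and Hsp110 members were mixed. Of 13 tested, 5 were lower and 2 higher in BBBPH than in model livers, 4 were lower and 4 higher in model than in control livers, and 2 were lower in BBBPH than in control livers. The J-domain gene Dnajb4 had the largest difference of the list, at 5.38, 4.46, 4.87, 4.78 and 5.42 FPKM in BBBPH livers, 14.1, 11.3, 8.63, 10.8 and 11 FPKM in model livers and 13.3, 13.9, 13.6, 15.3 and 13.0 FPKM in control livers. All its BBBPH livers lay below all others, and it fell by 1.31 on the log2 scale relative to control (limma, adjusted p = 1.50e-06) and by 1.01 relative to model livers (adjusted p = 6.29e-06). Dnajb6 went the other way, higher in BBBPH than in model livers by 0.50 (limma, adjusted p = 0.000235) and lower in model than in control livers, where it fell by 0.65 (adjusted p = 2.16e-05). The testis-enriched Hspa2 averaged 0.928 ± 0.311 FPKM in BBBPH and 1.53 ± 0.298 FPKM in control livers (log2 fold change -0.40, limma adjusted p = 0.0154), and Hspa14, an Hsp70 of the ribosome, averaged 7.63 ± 1.07 and 5.80 ± 0.210 FPKM in the same order (adjusted p = 0.0507).

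Partners of Hsp90 and exchange factors of Hsp70 shared the members' direction only in part. Among 16 Hsp90 co-chaperones, the 6 called in BBBPH against model livers were all lower: Stip1, which bridges Hsp70 and Hsp90 (-0.84, limma adjusted p = 0.000239), Cacybp (-0.59), Ahsa2 (-0.55), Ptges3 (-0.50), Ahsa1 (-0.39) and Ppid (-0.26). Stip1 averaged 42.4 ± 2.50 FPKM in BBBPH, 77.9 ± 17.3 FPKM in model and 54.3 ± 6.29 FPKM in control livers. In BBBPH against control livers 5 of the 16 were higher and 2 lower, with Fkbp5, a glucocorticoid-induced immunophilin, at 28.0 ± 8.78 against 13.5 ± 5.27 FPKM (log2 fold change 1.0, limma adjusted p = 0.00959), and with median-ratio size factors 3 were higher and 5 lower. In model against control livers 8 of the 16 were higher by limma, a count that was 0 with median-ratio size factors (3 at an unadjusted p under 0.05) and 0 with voom. Among 8 exchange factors and partners of Hsp70, 1 was called in BBBPH against model livers, St13 (-0.27, limma adjusted p = 0.0136), and 3 were higher in BBBPH than in control livers, with Bag5 at 7.10 ± 0.560 against 5.68 ± 0.352 FPKM (adjusted p = 0.00733), and 3 were higher in model than in control livers. With median-ratio size factors 0 of the 8 were higher against control in either comparison by limma, at an adjusted or an unadjusted p under 0.05, and 1 was lower in BBBPH and 2 in model livers.

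Of the small heat-shock proteins, Hspb1 and Hspb8 were lower in BBBPH than in model livers and higher in model than in control livers. Hspb1, an actin-linked holdase, was at 38.6, 20.9, 50.2, 26.2 and 19.3 FPKM in BBBPH livers, 117, 56.4, 43.1, 75.8 and 88.1 FPKM in model livers and 28.6, 28.2, 26.8, 35.9 and 40.7 FPKM in control livers. Model livers lay above all control livers, while BBBPH and control livers overlapped, with a log2 fold change between them of -0.12 (limma, adjusted p = 0.761; interval -0.70 to 0.45). Hspb8, the partner of Bag3, averaged 65.9 ± 9.38 FPKM in BBBPH, 147 ± 24.0 FPKM in model and 83.1 ± 10.5 FPKM in control livers, and it fell by 1.14 on the log2 scale in BBBPH relative to model livers (limma, adjusted p = 2.13e-05) and was higher by 0.81 in model than in control livers (adjusted p = 0.000212). These were the 2 of 4 tested genes of the list that were called in each of those comparisons.

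Chaperonin and mitochondrial genes were called in both directions in BBBPH against model livers. Of 14 subunits of TRiC, the ring that folds actin and tubulin, and of its partner prefoldin, 1 was higher (Tcp1, 0.21) and 1 lower (Cct3, -0.31) in BBBPH than in model livers, 2 were higher in model than in control livers, with Cct3 by 0.55 (limma, adjusted p = 3.02e-05), and 2 were higher in BBBPH than in control livers. Of 13 mitochondrial chaperones and proteases, 2 were higher and 2 lower in BBBPH than in model livers, 5 were higher in model than in control livers, with the protease subunit Clpx by 1.19 (limma, adjusted p = 0.0131), and 5 were higher in BBBPH than in control livers, among them Dnaja3 at 48.8 ± 4.57 against 38.4 ± 2.16 FPKM (limma, adjusted p = 0.00504) and Htra2 at 6.98 ± 0.938 against 5.06 ± 0.212 FPKM (adjusted p = 0.00437). With median-ratio size factors the last count was 1, and 0 of the TRiC and prefoldin genes were called in BBBPH against control livers by limma (0 also at an unadjusted p under 0.05, and 0 by voom).

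Hsf1, the gene of the heat-shock factor itself, was not among the genes that fell. It was at 3.56, 4.29, 4.40, 4.2 and 4.30 FPKM in BBBPH livers, 4.57, 4.63, 3.60, 3.84 and 3.67 FPKM in model livers and 3.83, 3.03, 3.72, 3.04 and 3.27 FPKM in control livers. BBBPH and model livers overlapped and did not differ beyond their spread (log2 fold change 0.03, interval -0.14 to 0.20, limma adjusted p = 0.83), and BBBPH livers were above control livers by 0.23 (adjusted p = 0.039), which was 0.10 (adjusted p = 0.453) with median-ratio size factors. Of the 8 heat-shock factors and other heat-inducible genes, 5 were lower in BBBPH than in model livers and Hsf4 was higher (0.45). The 5 were Zfand2a (-0.98, limma adjusted p = 7.11e-05), an arsenite- and heat-inducible proteasome partner, the collagen chaperone Serpinh1 (-0.97, adjusted p = 1.40e-05), Ier5 (-0.61), Ubb (-0.26) and Hsbp1 (-0.24). In model against control livers 5 of the 8 were higher (4 higher and 1 lower with median-ratio size factors). In BBBPH against control livers Hsf1 was the 1 called. With median-ratio size factors 0 were higher there and 1 was lower, Zfand2a (-0.44, limma adjusted p = 0.0327).

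The cold-inducible RNA-binding protein genes, which rise when cells are cooled, were read beside them. Cirbp was at 4.83, 5.74, 5.06, 8.40 and 7.41 FPKM in BBBPH livers, 3.12, 2.56, 3.35, 2.88 and 3.34 FPKM in model livers and 2.78, 6.06, 4.38, 3.85 and 3.85 FPKM in control livers. All BBBPH livers lay above all model livers, with a log2 fold change of 0.83 (limma, adjusted p = 0.00114), and BBBPH and control livers overlapped, with 0.50 (adjusted p = 0.0258), a call lost with median-ratio size factors (0.35, adjusted p = 0.11). Rbm3 averaged 10.5 ± 1.34 FPKM in BBBPH, 9.30 ± 1.47 FPKM in model and 11.9 ± 2.37 FPKM in control livers and did not pass the test between any of them (limma, adjusted p = 0.376 for BBBPH against model, 0.055 for model against control and 0.349 for BBBPH against control). With median-ratio size factors both Cirbp and Rbm3 were called lower in model than in control livers.

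**Figure D5:**
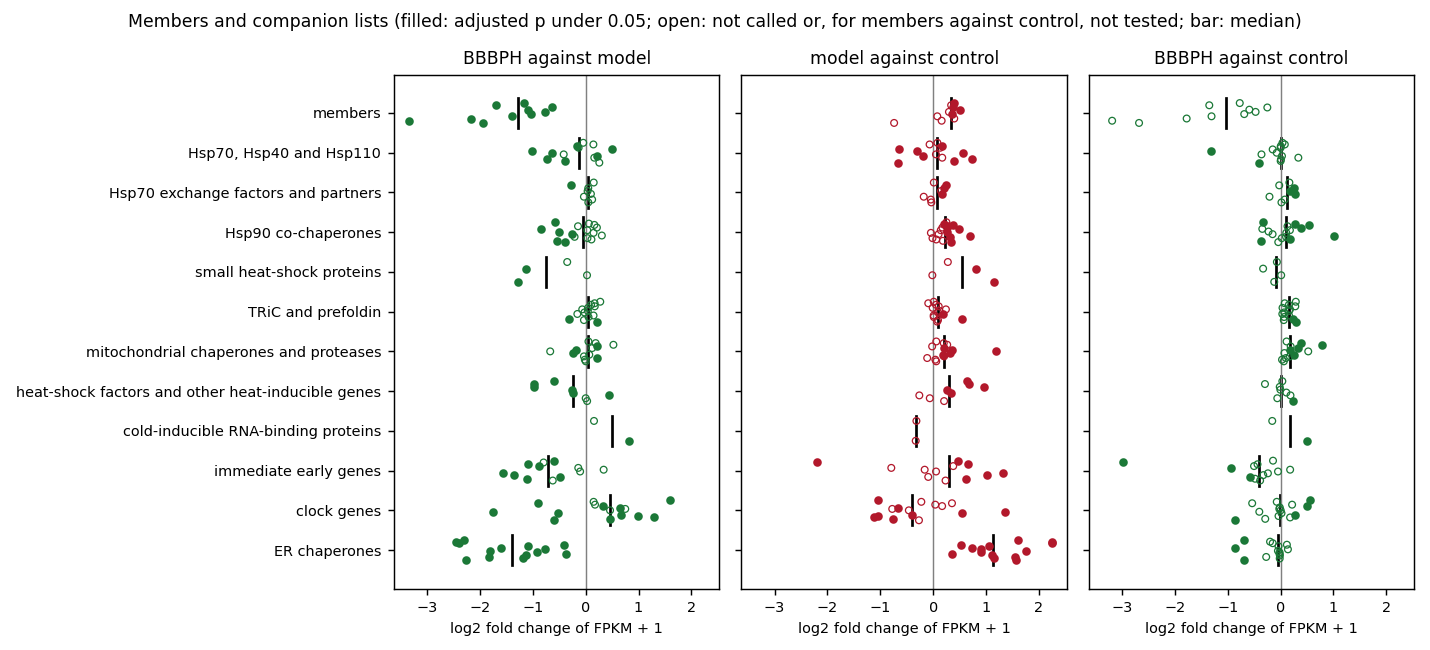
Log2 fold changes of FPKM + 1 (horizontal axes) of the 10 members and of the companion lists (rows). Panels show BBBPH against model, model against control and BBBPH against control. Each point is a gene, filled where limma's adjusted p was under 0.05, and the bar is the median of the list. All 10 members are drawn open in BBBPH against control, where they were not tested. Members and ER chaperones lie left of 0 in BBBPH against model, with medians of -1.27 and -1.39, and in model against control the medians are 0.35 and 1.13; in BBBPH against control ER chaperones stand near 0 with a median of -0.05.

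Lists of genes that respond to stimuli, to the hour of the day or to proteins in the endoplasmic reticulum (ER) were also read in the same livers, and their part in the chaperone values was not tested. Of 12 immediate early genes tested, 7 were lower in BBBPH than in model livers and 3 lower in BBBPH than in control livers, with Jund at 13.5 ± 1.81 against 20.8 ± 3.05 FPKM (limma, adjusted p = 0.0027), while 5 were higher and 1 lower in model than in control livers (2 and 2 with median-ratio size factors). Of 15 clock genes, 7 were higher and 4 lower in BBBPH than in model livers, 2 were higher and 6 lower in model than in control livers, and 3 were higher and 1 lower in BBBPH than in control livers (1 and 2 with median-ratio size factors). The lower one was Per1, a clock gene that glucocorticoids induce, at 1.67 ± 0.640 against 3.80 ± 0.727 FPKM (log2 fold change -0.87, limma adjusted p = 0.00311). The 14 chaperones of the endoplasmic reticulum were all lower in BBBPH than in model livers and all higher in model than in control livers (13 with median-ratio size factors), and 3 of them, Hspa5, Dnajb9 and Manf, were lower in BBBPH than in control livers. Their medians were -1.39, 1.13 and -0.05 in the order given, where those of the members were -1.27, 0.35 and, by choice, -1.04.

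Over the 15 livers the tested genes most like the mean standardized profile of the members were P4ha1 (Pearson r = 0.974), Uspl1 (0.955), Luc7l (0.953), Palld (0.939), Ahsa2 (0.930) and Jdp2 (0.923), given as a description with no test, since the groups dominate it. P4ha1, a subunit of collagen prolyl hydroxylase, was at 3.09, 2.49, 3.48, 2.54 and 2.09 FPKM in BBBPH livers, 14.5, 12.6, 6.12, 8.95 and 10.9 FPKM in model livers and 8.97, 8.19, 8.81, 9.56 and 9.84 FPKM in control livers. All BBBPH livers lay below all others, and among its model livers 1_1 was highest and 2_1 lowest, as in the members' mean deviation. With the group means removed, the highest r were those of Hspb1 (0.867), P4ha1 (0.860), Dnaja4 (0.858), Stip1 (0.828), Btg3 (0.826) and Rnf113a2 (0.812). Dnaja4, a J-domain gene at a low level (1.81 ± 0.609 FPKM in BBBPH, 2.83 ± 1.13 FPKM in model and 2.57 ± 0.354 FPKM in control livers), thus followed the members from liver to liver without passing the test between groups (limma, adjusted p = 0.121 for BBBPH against model, 0.846 for model against control and 0.162 for BBBPH against control).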

How the data were processed

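Per the labels' protocols, TRIzol was used to extract total RNA from 15 livers and the VAHTS Universal V6 kit to build the libraries. The values used were FPKM as deposited by the authors, with a column for each library. Of tools, HISAT2, HTSeq, fastp and DESeq2 appear in the submitters' processing notes, and of builds mm10. Versions, settings, annotation and strand are not given in the sources used here. Each of the 15 single files matched its column of the series table, differing by at most 0 FPKM. Positions are from GENCODE on GRCm38, and promoters from RefSeq on GRCm38.p6. Fragment counts were recovered for 14715 genes from the steps of the FPKM values, within 0.02 of a whole number. Chi-square per gene between livers of a group was 27.8 to 341, far above what sampling noise gives. This value does not tell separate animals from separate preparations of the same RNA, and every library was counted as a replicate.

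Genes averaging 1 FPKM or more over the libraries, 9575 with all 10 members among them, entered a limma fit (limma 3.58.1, statmod 1.5.0, R 4.3.3). It was made on log2(FPKM + 1) with a mean for each of the 3 groups, which left 12 residual degrees of freedom, and used eBayes with a trend. Adjustment over all genes tested followed Benjamini and Hochberg with 2-sided p-values, and calls needed an adjusted p under 0.05. The procedure was tested on simulated data. The rest was done in Python 3.11.15 with pandas 2.3.3, numba 0.67.0, numpy 2.4.6, matplotlib 3.10.9 and scipy 1.17.1. A gene of the companion lists is not reported here and was left out of their counts. The members and all lists were chosen with earlier results of these data known.

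Genes were named by a rule: all 10 members, Hsf1, Cirbp and Rbm3, up to 3 genes of each companion list (2 for clock, immediate early and ER chaperone genes) by the smallest p in BBBPH against control, and the 6 genes most like the members by each measure of likeness, 49 in all. Some of these are given only in the counts of their list, and other list members named in the text were chosen after their values were seen. Same-numbered libraries of different groups did not deviate together (r of -0.329 to 0.024 over 8 pairs), and the labels do not say what the numbers mean, so they formed no block. Alternatives were another pseudocount (0.1), no filter, a minimum of 5 FPKM, TPM, median-ratio size factors, eBayes without trend or robust, fits of 2 groups, replicate blocks, both Hsp70 copies summed and each library left out. Voom on recovered fragments and leaving out 3 libraries were added after seeing the data.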

Additional observations from a re-analysis of the deposited data

Results flagged for a closer look

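Of 147 groups of 5 values tested for a library far from the others, 6 were flagged, and 0 of the 30 groups of the members, by a rule that chance meets in about 1 in 20 groups. Myc was 16.5 FPKM in model 1_4, against 1.36 to 3.07 FPKM in the other model livers and 9.90 to 38.6 FPKM in control livers. Bag6 was 12.9 FPKM in model 3_4, against 15.4 to 16.1 FPKM in the other model livers. In BBBPH livers, Hsf1 was 3.56 FPKM in 2_1, against 4.2 to 4.40 FPKM, and Grpel2 was 32.7 FPKM in 3_1, against 17.4 to 21.4 FPKM. In control livers, library 2_1 held 4.14 FPKM of Cryab, against 1.43 to 2.01 FPKM, and 4.10 FPKM of Luc7l, against 4.76 to 5.01 FPKM. Cryab is also made by skeletal muscle, whose 4 markers summed to 260 FPKM in this library. The cause of these values was not tested.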

How the results depend on the processing

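Of the members' log2 fold changes under the alternatives, over all 3 comparisons, 787 were kept, 24 lost and 6 gained a call, 11 moved beyond the spread and 6 changed sign. In BBBPH against model and model against control, kept means the same direction and side of the threshold. BBBPH against control chose the members and was not tested for them, so its kept values carry no call and nothing is read from them. All 11 that moved were in that comparison. The sign changes were all in model against control: Hspa1b was -0.081 without control 1_1 and -0.202 without model 1_1, and Dnajb1 was -0.004 without the 3 libraries that stood apart, -0.072 with median-ratio size factors, -0.060 with voom on fragments and -0.048 without model 1_1. With a library left out their ranges were -0.202 to 0.445 and -0.048 to 0.208. Members called in model against control (4) were 0 with median-ratio size factors, 1 with voom, and 2 to 6 with a library left out. All 10 members kept a negative log2 fold change in BBBPH against model livers under each alternative that tested them. Each call held apart from the replicate block, where Hspa1a, Hspa1b, Hsp90aa1 and Hsp90ab1 lost it (limma, adjusted p = 0.0528 to 0.183). The replicate block, which rests on 10 libraries whose numbers do not pair them, gave 6 members called in BBBPH against model and 0 in model against control, with 305 genes called in place of 2533 and 1315 in place of 3692. A block on the first digit gave 1795 and 3586 genes. With a minimum of 5 FPKM, 1634 genes were called in BBBPH against model and 2259 in model against control, where fewer genes were tested. With a library left out these counts were 2084 to 2647 and 3112 to 3761. Depth limits Hspa1a most, at 25 to 55 fragments in BBBPH livers. The causes of the other shifts were not tested.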

Other observations

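Some chaperone genes outside the chosen set stood higher in BBBPH than in control livers, the opposite of the members' order. They were 16 of the 76 listed genes tested, a share near that of all genes, of which 24.4% were called higher. With median-ratio size factors 4 of the 76 were higher and 11 lower. Unc45a, a co-chaperone of Hsp90 that helps to fold myosin, averaged 3.26 ± 0.448 FPKM in BBBPH, 2.83 ± 0.659 FPKM in model and 1.94 ± 0.147 FPKM in control livers (log2 fold change of BBBPH against control 0.53, limma adjusted p = 0.003), and kept the call with median-ratio size factors (0.41, adjusted p = 0.0138). Ttc4 averaged 4.91 ± 0.471 FPKM in BBBPH, 4.12 ± 0.631 FPKM in model and 3.53 ± 0.448 FPKM in control livers (0.39, limma adjusted p = 0.00713, and 0.25, adjusted p = 0.0465, with median-ratio size factors). Grpel2, the nucleotide exchange factor of mitochondrial Hsp70, averaged 21.8 ± 6.25 FPKM in BBBPH, 14.6 ± 2.14 FPKM in model and 12.5 ± 4.93 FPKM in control livers (0.79, limma adjusted p = 0.0109), and lost the call with median-ratio size factors (0.63, adjusted p = 0.0518). In BBBPH 3_1 Grpel2 lay far above the other livers of its group. Genes with the members' order included Palld, an actin-bundling protein, at 6.66 ± 1.72 FPKM in BBBPH, 15 ± 3.54 FPKM in model and 11.4 ± 1.27 FPKM in control livers, and Jdp2, a partner of Jun proteins, at 0.668 ± 0.103, 1.99 ± 0.536 and 1.69 ± 0.361 FPKM in the same order. They were picked for their likeness, so their differences are a description.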
